A study of Mus musculus with 4 samples.

Results

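The genes described here are 10 genes of the retinoic acid pathway, chosen by name and read from the deposited count table by their symbols: the enzyme genes Aldh1a2, Aldh1a3, Dhrs3 and Cyp26b1, the binding protein genes Crabp1 and Crabp2, and the receptor genes Rara, Rarb, Rarg and Rxra. All 10 were among the 24982 genes of the table, and 8 of them were among the 14235 genes with enough counts to be tested. The libraries were made from polyA RNA of micro-dissected mouse forebrain at stage E10.5. There were 2 conditional knockout libraries (cKO), with the genotype Sox1 cre+/-; Chd7 f/f, and 2 control libraries, with the genotype Chd7 +/f. In the cKO embryos both Chd7 alleles were floxed and a Cre recombinase named for Sox1, a gene of the early neural tube, was present. In the control embryos a single allele was floxed and the label names no Cre, so an effect of the Cre allele cannot be told apart from that of losing CHD7, a chromatin remodeller. Cells outside the reach of this Cre remain in the dissected tissue. Whether a library was made from a single embryo or from a pool is not stated in the labels, and p-values here measure the spread between these libraries.

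Retinoic acid is made from vitamin A. Retinol is oxidised to retinaldehyde by retinol dehydrogenases, and retinaldehyde to retinoic acid by the ALDH1A enzymes, while DHRS3 turns retinaldehyde back into retinol and the CYP26 enzymes break retinoic acid down. In the cell, CRABP proteins carry retinoic acid, and pairs of a retinoic acid receptor (RAR) and a retinoid X receptor (RXR) bind DNA and change transcription when it arrives. In the vertebrate embryo this signal is known for patterning the hindbrain and spinal cord, the eye and the face, and it reaches the early forebrain from neighbouring tissue such as the surface ectoderm and the mesenchyme.

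Of the 8 members tested, 1 passed the test in the cKO forebrain. Crabp2, which encodes the carrier that hands retinoic acid to its nuclear receptors, was 1.48-fold higher. No member passed in the other direction. Crabp1, Rara and Rxra differed with an unadjusted p under 0.05 and did not pass after adjustment over all genes. The synthesis genes Aldh1a2 and Aldh1a3 were near the limit of detection in both groups. Outside these 10 genes, Stra6 and Rdh10, which serve retinol uptake and its first oxidation, rose. Meis1, Meis2 and Nr2f1, known in other tissues to respond to retinoic acid, fell. The calls of Stra6, Rdh10 and Meis1 were lost under some of the alternatives run.

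The 4 libraries held 16581252 to 17096522 counts. Levels are given in CPM, counts scaled to library size with TMM factors, and 1 count was worth 0.0591 to 0.0602 CPM in the cKO libraries and 0.0588 to 0.0599 CPM in the control libraries. Differences are log2 ratios of the cKO to the control level, each with the standard error (SE) that edgeR's quasi-likelihood test implies, and a gene was called at a Benjamini-Hochberg adjusted p under 0.05 over all genes tested. By this rule 3.70% of the 14235 genes were called, 1.57% as higher and 2.13% as lower in the cKO. Chd7, the targeted gene, measured 136 and 132 CPM in the cKO, against 339 and 345 CPM in the control libraries (log2 fold change -1.35, SE 0.05, edgeR adjusted p = 8.7e-05). The forebrain markers Six3, Otx2, Sox2, Emx2 and Lhx2 were present in every library. Six3, a marker of the anterior forebrain, measured 53.8 and 47.4 CPM in the cKO, against 31.4 and 40.6 CPM in the control libraries (edgeR adjusted p = 0.095). Lhx2 was called lower in the cKO (log2 fold change -0.87, edgeR adjusted p = 0.029), and Six3, Otx2, Sox2 and Emx2 were not called. The hindbrain genes Hoxb1, Hoxa2 and Hoxb2 had 0 or 1 count in each library. In bulk tissue, fewer cells of a type and less RNA per cell cannot be told apart.

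Control replicate 1 stood apart in markers of surface and placodal ectoderm. These 8 genes summed to 78.3 and 57.8 CPM in cKO replicates 1 and 2, against 23.4 and 72.6 CPM in control replicates 1 and 2, and 7 of the 8 were at their lowest in control replicate 1. None of the 8 was called between the groups by edgeR (1 at an unadjusted p under 0.05). Trp63, a defining gene of surface ectoderm, had 79 and 27 counts in the cKO libraries, against 0 and 101 counts in control replicates 1 and 2. Results that rest on this library are given with and without it.

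**Figure D1:**
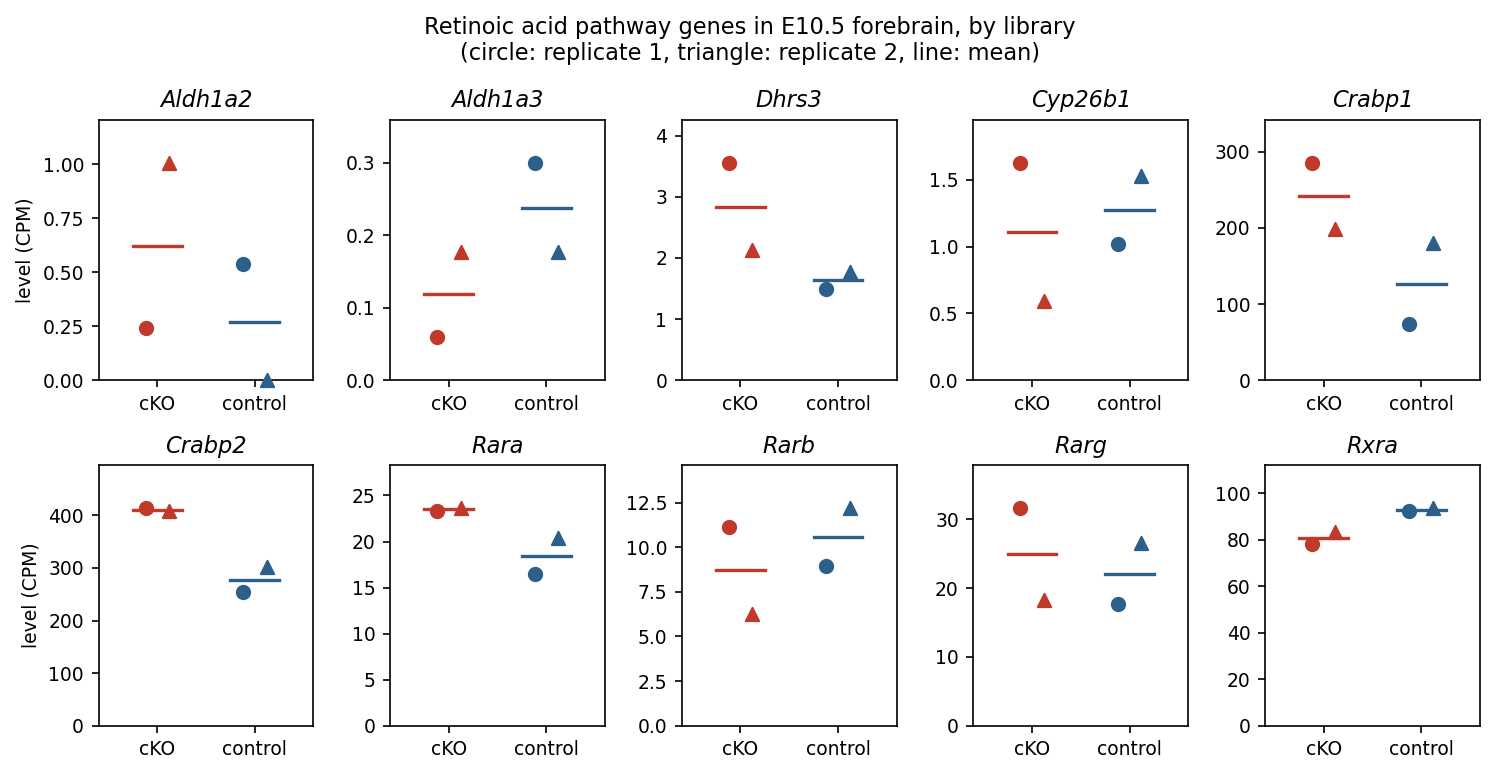
Level of each of the 10 genes in CPM (vertical axes, starting at 0) in the 2 cKO libraries (red, left) and the 2 control libraries (blue, right); circles are replicate 1, triangles replicate 2 and lines group means. For Crabp2 both cKO libraries, at 413 and 408 CPM, lie above both control libraries, at 253 and 302 CPM, and replicates of a group lie far apart for Crabp1, Rarb and Rarg.

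The genes that make retinoic acid were barely detected. Aldh1a2 (GRCm38.p6 chromosome 9, 71215789 to 71296243), the main retinaldehyde dehydrogenase of the early mouse embryo, had 4 and 17 counts in the cKO libraries, against 9 and 0 counts in the control libraries. The count of 0 in control replicate 2 allows a level of up to 0.176 CPM (3 counts, counting error only). Aldh1a3 (chromosome 7, 66390892 to 66427477), the family member of the eye and the nasal ectoderm, had 1 and 3 counts in the cKO libraries, against 5 and 3 counts in the control libraries. The groups overlapped for both genes. Neither passed the filter on low counts, so neither entered the edgeR test used here, and a difference was not detectable at this depth. The authors' deposited table lists a log2 fold change of 1.21 for Aldh1a2 (unadjusted p = 0.419) and -1.003 for Aldh1a3 (unadjusted p = 0.605), both with no adjusted p. Synthesis in tissue next to the forebrain is not measured by these libraries.

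Dhrs3 (chromosome 4, 144892534 to 144928209), whose product removes the retinaldehyde that the ALDH1A enzymes use, had 3.55 and 2.13 CPM in the cKO libraries, against 1.50 and 1.76 CPM in the control libraries. Both cKO libraries were above both control libraries, cKO replicate 1 further than cKO replicate 2. The log2 fold change of 0.80 (SE 0.38, 95% interval -0.083 to 1.67) did not pass the test (edgeR adjusted p = 0.332). It was 0.38 without cKO replicate 1 (edgeR adjusted p = 0.808) and 1.12 without cKO replicate 2 (0.352). Cyp26b1 (chromosome 6, 84571414 to 84593908), which encodes an enzyme that breaks down retinoic acid, had 1.63 and 0.591 CPM in the cKO libraries, against 1.02 and 1.53 CPM in the control libraries. The highest and the lowest of its 4 values were both in the cKO, and the log2 fold change was -0.20 (95% interval -1.50 to 1.09, edgeR adjusted p = 0.898). It was 0.35 without cKO replicate 2 and 0.12 without control replicate 2, so its direction rested on single libraries.

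Crabp2 and Crabp1 were the most abundant members and held 78.45% of all counts of the 10 genes. Their products bind retinoic acid in the cytoplasm: CRABP2 is known for delivering it to the receptors, CRABP1 for delivering it to breakdown. The coding parts of the 2 mRNAs, of 411 bases for Crabp1 and 414 bases for Crabp2, matched at 70.8% of aligned bases. To show how far reads of this pair can be told apart, their longest identical coding stretch, 11 bases (capitals), is given with 30 bases on each side (coding bases 121 to 191 of both, GENCODE M21 transcripts, GRCm38, 5′ to 3′):
Crabp1: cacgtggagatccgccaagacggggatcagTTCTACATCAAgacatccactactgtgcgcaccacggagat
Crabp2: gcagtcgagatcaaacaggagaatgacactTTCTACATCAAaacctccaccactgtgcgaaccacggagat

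Crabp2 (chromosome 3, 87948693 to 87953372) measured 413 and 408 CPM in the cKO libraries, against 253 and 302 CPM in the control libraries. The groups did not overlap, and the gap between them was larger than the spread within either. The means were 411 ± 3.8 CPM in the cKO and 277 ± 34 CPM in the control (SD, n = 2 each). Crabp2 rose by 0.56 on the log2 scale (SE 0.08, 95% interval 0.38 to 0.75, edgeR adjusted p = 0.011). The call held under each of the 11 alternatives run, with log2 fold changes of 0.45 to 0.70. The value of 0.45 was that without control replicate 1 (edgeR adjusted p = 0.0067). In the authors' deposited table its log2 fold change was 0.56 with an adjusted p of 2.0e-10.

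Among 10804 genes averaging 5 CPM or more and counted in every library, with the members, Chd7, predicted genes and sex-linked dosage genes left out, the gene whose pattern over the 4 libraries was most like that of Crabp2 was Pknox2, a TALE homeobox gene. It measured 83.4 and 84.2 CPM in the cKO libraries, against 51.4 and 62.2 CPM in the control libraries. The root mean square difference of the centred log2 CPM values was 0.014.

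Crabp1 (chromosome 9, 54764748 to 54773110), also known as a marker of migrating cranial neural crest, measured 285 and 198 CPM in cKO replicates 1 and 2, against 73.2 and 181 CPM in control replicates 1 and 2. Both cKO libraries were above both control libraries, but the control replicates were 2.47-fold apart and cKO replicate 2 was close to control replicate 2. The means were 242 ± 61 CPM in the cKO and 127 ± 76 CPM in the control (SD, n = 2 each). The log2 fold change of 0.93 (SE 0.36, 95% interval 0.095 to 1.76) had an unadjusted p of 0.034 and did not pass (edgeR adjusted p = 0.239). It was 0.42 without control replicate 1 (edgeR adjusted p = 0.356) and 1.72 without control replicate 2, where it was called (edgeR adjusted p = 0.00081). Crabp1 and the ectoderm markers were lowest in the same library, control replicate 1. The part of these cells in the Crabp1 values was not tested.

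Per kilobase of exon, the level of Crabp2 relative to Crabp1 was 0.879 and 1.25 in cKO replicates 1 and 2, against 2.10 and 1.01 in control replicates 1 and 2. The groups overlapped in this ratio. The summed level of the 2 genes was 698 and 606 CPM in the cKO libraries, against 327 and 482 CPM in the control libraries. In this sum both cKO libraries were above both control libraries.

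**Figure D2:**
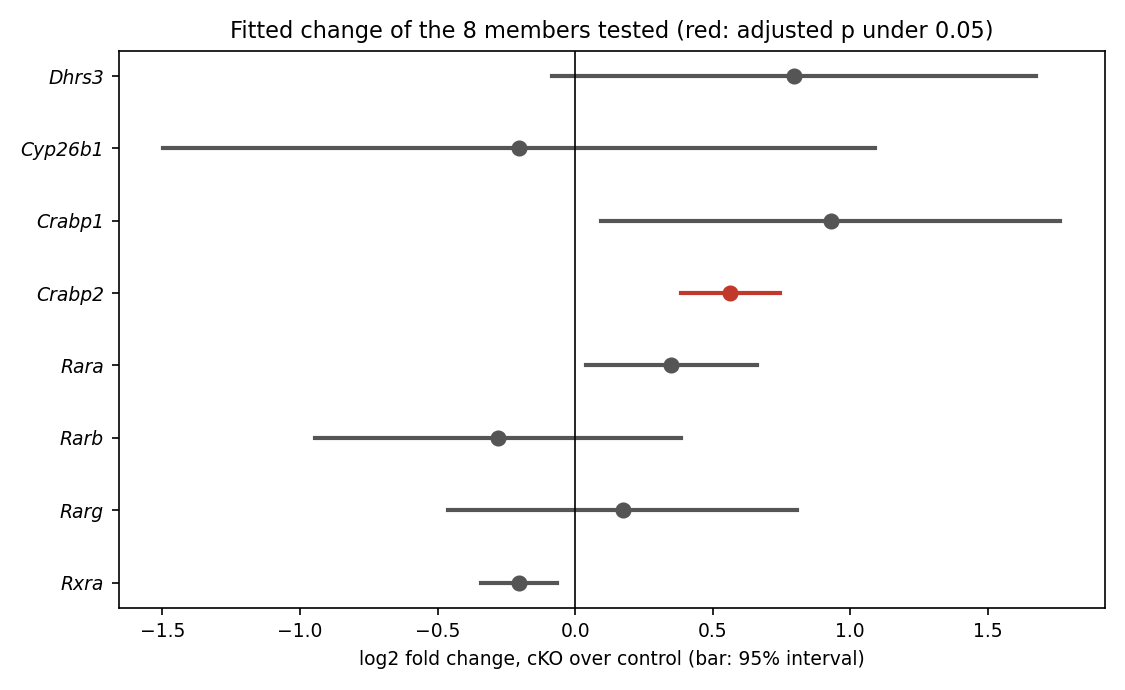
Log2 fold change of cKO over control (horizontal axis; dots) with its 95% interval (bars) for the 8 members tested, red where the adjusted p was under 0.05. Crabp2, at 0.56, is the single member in red; the intervals of Crabp1, Rara and Rxra also leave out 0, and those of Dhrs3, Cyp26b1, Rarb and Rarg include it.

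All 3 RAR genes were detected in every library. Rarb is known as a direct target of its own receptors through a response element in its promoter, a pair of half-sites 5 bases apart, and that promoter is shown for this reason (chr14:16575427-16575726, minus strand, GRCm38.p6, RefSeq, 5′ to 3′, half-sites in capitals):
Rarb: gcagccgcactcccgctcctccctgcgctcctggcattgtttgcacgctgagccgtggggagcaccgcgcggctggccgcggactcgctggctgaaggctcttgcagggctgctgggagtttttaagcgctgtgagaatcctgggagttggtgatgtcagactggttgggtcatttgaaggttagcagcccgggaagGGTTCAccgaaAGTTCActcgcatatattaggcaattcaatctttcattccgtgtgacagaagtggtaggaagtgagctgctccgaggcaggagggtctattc

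The half-sites searched were AGGTCA and 3 variants of it, the form AGTTCA, the form GGGTCA and the form GGTTCA, taken as direct repeats 1, 2 or 5 bases apart on either strand. Windows of 300 bases around start sites were listed for 8 of the 10 members, 15 windows in all. None was listed for Crabp2 or Aldh1a3, so these 2 were not searched. The Rarb window was the single member window with a match, at positions -53 to -37 relative to the start site. Of 32851 windows of all genes, 0.0974% held a pair 5 bases apart and 0.588% a pair at any of the 3 spacings. The forms and spacings searched include those of the known Rarb element, so its match followed from that choice and is no finding. A match is a description of letters and no evidence of binding.

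Rarb (chromosome 14, 16430839 to 17082331) measured 11.1 and 6.27 CPM in cKO replicates 1 and 2, against 8.93 and 12.2 CPM in control replicates 1 and 2. The groups overlapped, and the cKO replicates were 1.78-fold apart. Its log2 fold change was -0.28 (SE 0.28, 95% interval -0.95 to 0.39, edgeR adjusted p = 0.689), and 0.079 without cKO replicate 2. In GENCODE M21, 34.1% of Rarb exon bases lie over exons of Top2b on the opposite strand. The counting command set no strand option, so reads there cannot be given to either gene with certainty.

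Rara (chromosome 11, 98927800 to 98974942), the most widely expressed RAR of the mouse embryo, measured 23.4 and 23.6 CPM in the cKO libraries, against 16.4 and 20.4 CPM in the control libraries. Both cKO libraries lay above both control libraries and within 1.01-fold of each other. Its log2 fold change of 0.35 (SE 0.13, 95% interval 0.038 to 0.66) had an unadjusted p of 0.032 and did not pass (edgeR adjusted p = 0.234). It was 0.20 without control replicate 1 (edgeR adjusted p = 0.624) and 0.52 without control replicate 2 (0.094).

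Rarg (chromosome 15, 102234938 to 102257522), a receptor known from mesenchyme and surface ectoderm, measured 31.6 and 18.3 CPM in cKO replicates 1 and 2, against 17.7 and 26.5 CPM in control replicates 1 and 2. The groups overlapped, with cKO replicate 1 and control replicate 2 high and the other 2 libraries low. The log2 fold change was 0.17 (SE 0.27, 95% interval -0.46 to 0.81, edgeR adjusted p = 0.810). Its sign turned without cKO replicate 1 (-0.27) and without control replicate 1 (-0.089).

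The same replicates were the higher ones for markers of head mesenchyme. Of its 12 markers, 11 were higher in cKO replicate 1 than in cKO replicate 2 and 10 were higher in control replicate 2 than in control replicate 1. Their summed level was 884 and 569 CPM in cKO replicates 1 and 2, against 847 and 989 CPM in control replicates 1 and 2, and 1 of the 12, Foxd1, was called lower in the cKO by edgeR. Of the 8 members tested, 6 had this order within both groups, Rarb, Rarg and Cyp26b1 among them. The order was not particular to mesenchyme, where 9 of 12 markers had it. It was also seen in 7 of 8 surface and placodal ectoderm markers and 4 of 5 erythroid markers tested. Of 6 neuronal and 6 endothelial markers, 0 had it. The share over all genes was not taken. The part of these cell types in the values of the members was not tested.

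The RAR mRNAs are close in sequence. The longest identical coding stretch among the 3 pairs, 24 bases in Rara and Rarg, is shown in capitals with 30 bases on each side (coding bases 964 to 1047 of Rara and 970 to 1053 of Rarg, GENCODE M21, 5′ to 3′), because reads within it alone would fit both genes:
Rara: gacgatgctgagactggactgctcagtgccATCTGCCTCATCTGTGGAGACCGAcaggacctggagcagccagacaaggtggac
Rarg: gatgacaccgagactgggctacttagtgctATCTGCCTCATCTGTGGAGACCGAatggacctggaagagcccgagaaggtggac

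Per kilobase of exon, Rarg made up 49.8% and 39.5% of the summed RAR level in cKO replicates 1 and 2, against 43.2% and 47.1% in control replicates 1 and 2. Rara made up 36.0% and 49.6% in the cKO libraries, against 39.2% and 35.4% in the control libraries. Both shares overlapped between the groups. The Rarb share was 14.2% and 10.9% in the cKO libraries, against 17.7% and 17.5% in the control libraries. It was lower in both cKO libraries than in both control libraries, and with 2 against 2 libraries a two-sided exact permutation test cannot go below p = 0.333. Per kilobase of coding sequence the Rarb share was 17.2% and 13.3% in the cKO libraries, against 21.2% and 21.0% in the control libraries. The overlap of Rarb exons with those of Top2b leaves its share uncertain with either length.

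**Figure D3:**
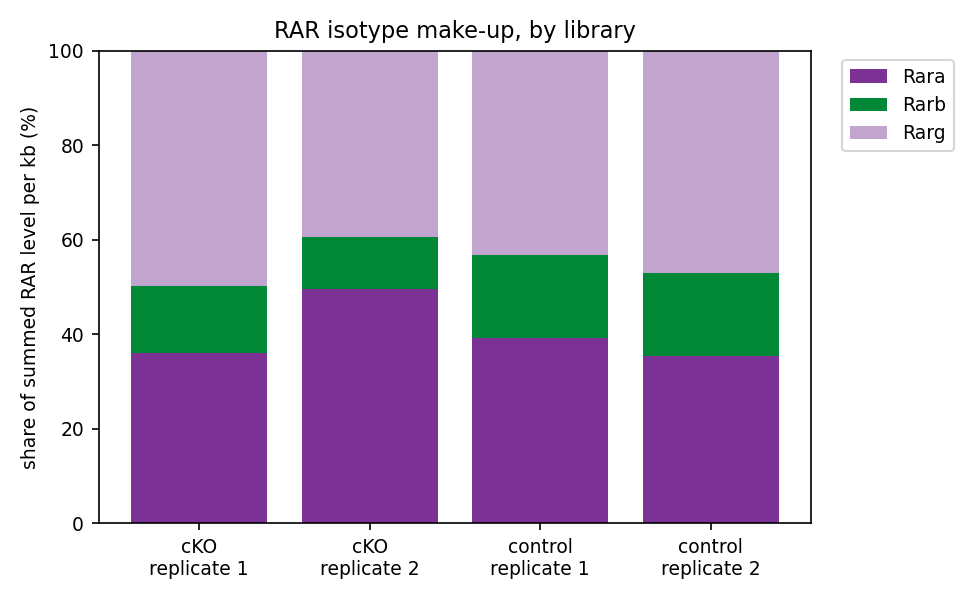
Share of the summed RAR level per kilobase of exon (vertical axis, percent, from 0 to 100) held by Rara, Rarb and Rarg in each library, the cKO libraries on the left. Rarb is the smallest share in all 4 libraries, at 14.2% and 10.9% in the cKO and 17.7% and 17.5% in the control. Its share is uncertain because part of its exons lie over those of Top2b.

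Rxra (chromosome 2, 27676445 to 27763319), the RXR partner that RARs need to bind DNA, measured 78.3 and 83.4 CPM in the cKO libraries, against 92.6 and 93.5 CPM in the control libraries. Both cKO libraries were below both control libraries, and each pair of replicates lay within 1.07-fold. Its log2 fold change of -0.20 (SE 0.06, 95% interval -0.34 to -0.065) had an unadjusted p of 0.0098 and did not pass (edgeR adjusted p = 0.125). Over the 11 alternatives it was -0.25 to -0.16, with adjusted p of 0.111 to 0.450. In the authors' deposited table the adjusted p of Rxra was 0.388. Per kilobase, the level of Rxra over the summed RAR level was 0.964 and 1.40 in the cKO libraries, against 1.76 and 1.30 in the control libraries, and the groups overlapped.

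Across the 8 members tested, 1 was called higher and 0 lower, against 1.57% and 2.13% of all genes. At an unadjusted p under 0.05 there were 3 higher and 1 lower by edgeR, against 1200 and 1295 of the 14235 genes tested. By the DESeq2 test, which fitted all 10 members, there were 1 higher and 1 lower at that limit, against 709 and 834 of 18556 genes. After adjustment, the DESeq2 test and limma-voom also called 1 member higher and 0 lower. Over all genes the DESeq2 test called 275 higher and 349 lower of 18556, and limma-voom 210 and 271 of 14235. The groups did not overlap for 5 of the 8 (48.3% of all genes tested): for 4 both cKO libraries were above both controls (24.3% of all genes), and for 1 both were below (24.0%). The median log2 fold change of the 8 was 0.26, against -0.00028 for all genes tested. These counts describe members that passed the count filter.

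Ordered by mean level per kilobase of exon over the 4 libraries, the members ran Crabp2, Crabp1, Rxra, Rarg, Rara, Rarb, Dhrs3, Cyp26b1, Aldh1a2 and Aldh1a3. Crabp2 was at 311 ± 2.8 CPM per kilobase in the cKO and 209.9 ± 26 in the control (SD, n = 2 each). Crabp1 was at 302 ± 77 in the cKO and 158 ± 95 in the control, so these neighbours did not differ beyond their spread. Rxra followed at 14.8 ± 0.66 in the cKO and 17 ± 0.12 in the control. Rarg, at 5.85 ± 2.2 and 5.19 ± 1.5 CPM per kilobase, and Rara, at 5.38 ± 0.035 and 4.22 ± 0.65, overlapped in both groups (cKO and control in turn). Rarb was at 1.65 ± 0.65 in the cKO and 2.0 ± 0.44 in the control, and Dhrs3 at 0.971 ± 0.34 in the cKO and 0.557 ± 0.064 in the control. These neighbours overlapped in the cKO libraries and not in the control libraries. At the bottom, Cyp26b1 was at 0.207 ± 0.14 in the cKO and 0.238 ± 0.067 in the control, and Aldh1a2 at 0.275 ± 0.24 in the cKO and 0.119 ± 0.17 in the control, which overlapped. Aldh1a3 was last, at 0.0257 ± 0.018 in the cKO and 0.0516 ± 0.019 in the control, and overlapped with Aldh1a2 in the control libraries and not in the cKO libraries. The order was the same with the longest transcript or the longest coding sequence as the length.

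**Figure D4:**
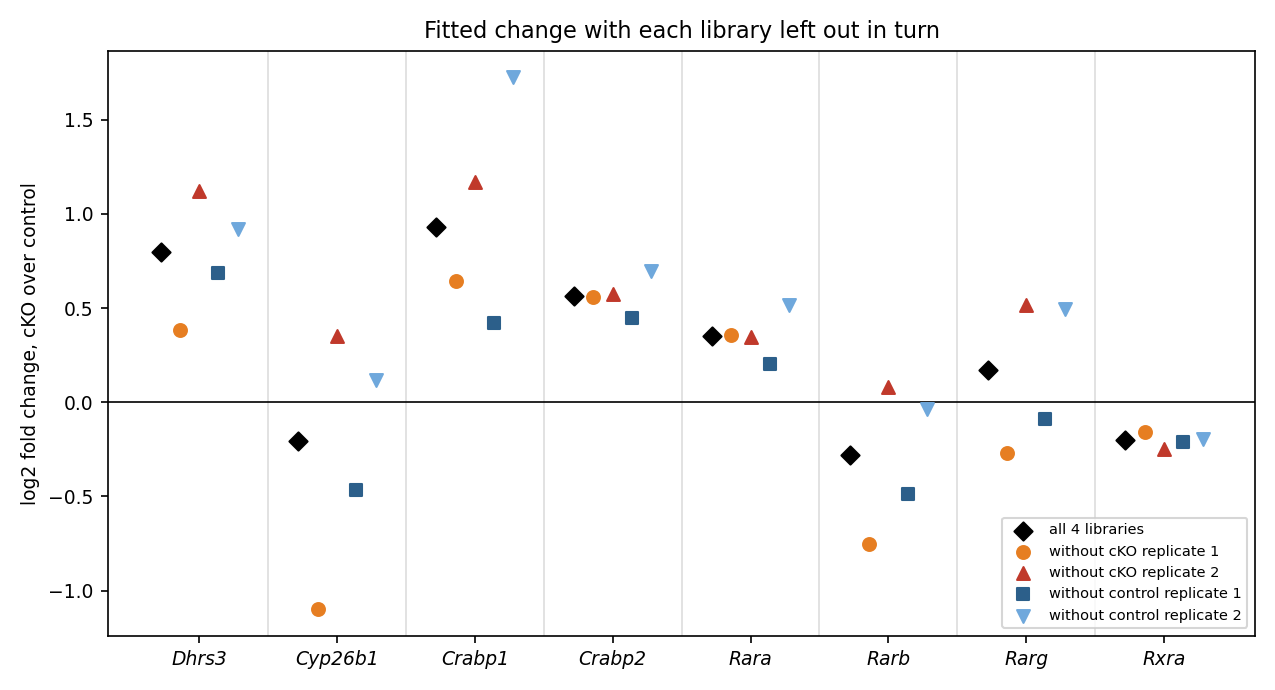
Log2 fold change of cKO over control (vertical axis) of the 8 members tested, with all 4 libraries (black diamonds) and with each library left out in turn (coloured symbols). The 5 values of Crabp2 lie between 0.45 and 0.70, while those of Cyp26b1, Rarb and Rarg fall on both sides of 0 and those of Crabp1 run between 0.42 and 1.72.

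Of 32 other retinoid genes, 19 were tested, and 2 rose and 0 fell (by the DESeq2 test and limma-voom also 2 and 0). Over all genes tested, edgeR called 1.57% higher and 2.13% lower. At an unadjusted p under 0.05 by edgeR, 3 of the 19 were higher and 0 lower, against 1200 and 1295 of all 14235 genes. The median log2 fold change was 0.038. Stra6, the receptor that takes retinol up from its plasma carrier, measured 42.4 and 32.1 CPM in the cKO libraries, against 15.6 and 22.3 CPM in the control libraries. Both cKO libraries were above both control libraries. Its log2 fold change was 0.97 (SE 0.19, edgeR adjusted p = 0.041), and the call was lost without cKO replicate 1 (0.76, edgeR adjusted p = 0.121) and without control replicate 1 (0.74, 0.088).

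Rdh10, the retinol dehydrogenase that makes most retinaldehyde in the mouse embryo, measured 20.7 and 21.2 CPM in the cKO libraries, against 12.9 and 12.8 CPM in the control libraries. The replicates of each group were nearly equal. Its log2 fold change was 0.70 (SE 0.12, edgeR adjusted p = 0.025). The call was lost without cKO replicate 1, cKO replicate 2 or control replicate 1 (edgeR adjusted p = 0.073, 0.116 and 0.076), while the log2 fold change stayed at 0.69 to 0.72. Rxrg, a restricted RXR gene named after its values were seen, had 34 and 40 counts in the cKO libraries, against 5 and 13 counts in the control libraries. Its log2 fold change of 2.03 (SE 0.50) did not pass (edgeR adjusted p = 0.079). It was 1.52 without control replicate 1 and 2.85 without control replicate 2. For Rxrb, the widely expressed RXR, the log2 fold change was 0.038 (SE 0.070) and the adjusted p from edgeR was 0.839. Aldh1a1, the other ALDH1A gene, had 0 and 1 counts in the cKO libraries, against 3 and 7 counts in the control libraries.

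Genes known in other embryonic tissues to respond to retinoic acid moved in both directions. Of 25 listed, 13 were tested, 1 rose and 3 fell (1.57% and 2.13% of all genes tested), with a median log2 fold change of -0.25. The gene that rose was Stra6, which stands in both lists. Those that fell were the TALE homeobox genes Meis2 (35.8 and 30.03 CPM in the cKO, against 88.3 and 67.1 CPM in the control libraries) and Meis1 (13.9 and 19.2 CPM, against 27.9 and 30.8 CPM) and the orphan nuclear receptor gene Nr2f1 (102 and 95.4 CPM, against 266 and 219 CPM). Their log2 fold changes were -1.24, -0.83 and -1.30 (edgeR adjusted p = 0.0062, 0.037 and 0.0011), and the call of Meis1 was lost without cKO replicate 1, control replicate 1 or control replicate 2 (0.084, 0.062 and 0.059). Nr2f2, an orphan receptor gene related to Nr2f1, had a log2 fold change of -0.25 and was not called (edgeR adjusted p = 0.192). Its log2 fold change was -0.12 without cKO replicate 1 and -0.40 without cKO replicate 2. Cyp26a1, a feedback target that breaks down retinoic acid, had 1.39 and 0.591 CPM in the cKO libraries, against 0.779 and 2.59 CPM in the control libraries (log2 fold change -0.77, edgeR adjusted p = 0.618).

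None of 17 tested nuclear receptor coregulators was called by edgeR, the DESeq2 test or limma-voom. By edgeR 2 were higher and 2 lower at an unadjusted p under 0.05 (1200 and 1295 of all 14235 genes), and the median log2 fold change was -0.0047. The smallest p-values belonged to the coactivator gene Ncoa3 (57.0 and 63.6 CPM in the cKO libraries, against 69.1 and 77.0 CPM in the control libraries) and the acetyltransferase gene Ep300 (178 and 187 CPM, against 198 and 202 CPM). Their log2 fold changes were -0.28 and -0.13 (edgeR adjusted p = 0.135 and 0.230). Nrip1, a receptor-binding corepressor gene that responds to retinoic acid, had a log2 fold change of 0.24 (edgeR adjusted p = 0.277). It was 0.10 without control replicate 1 and 0.40 without control replicate 2.

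**Figure D5:**
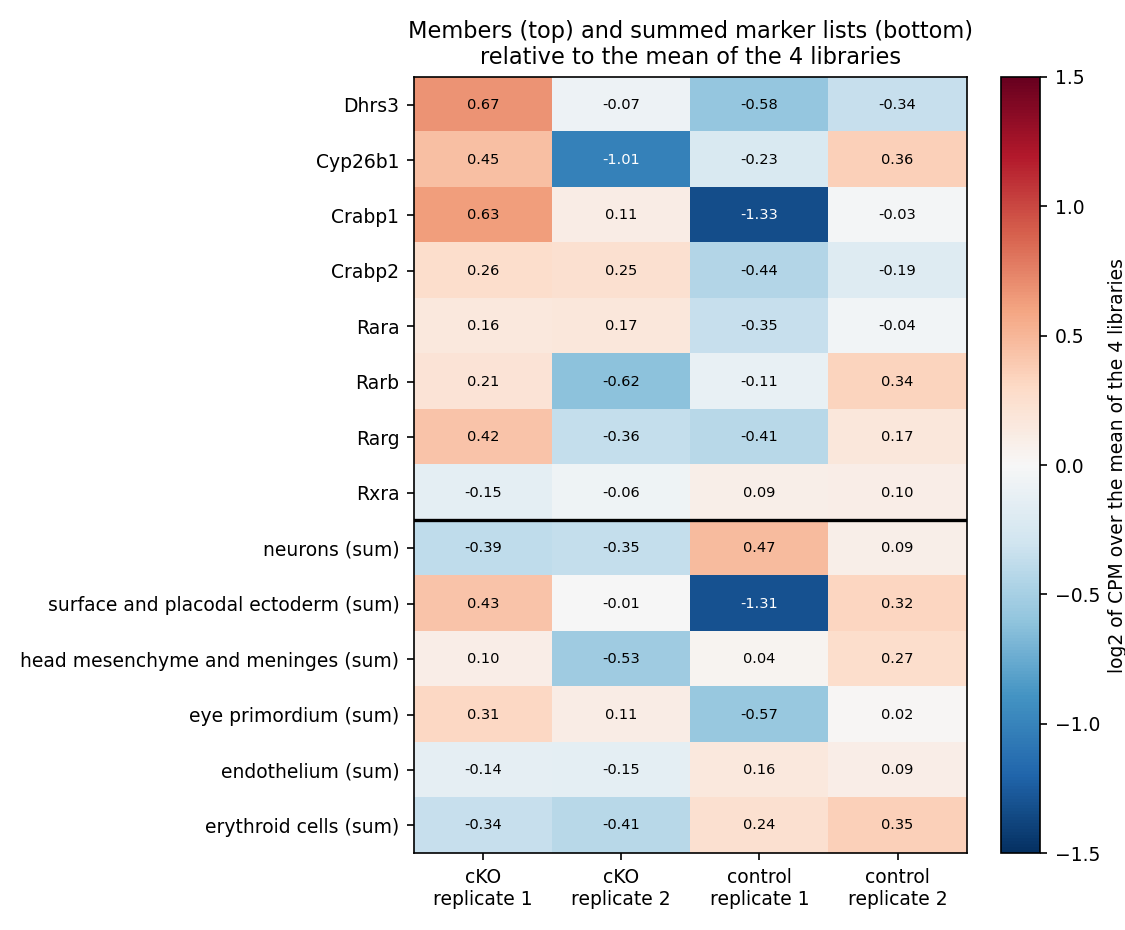
Log2 of the CPM of each of the 8 members tested (above the line) and of the summed CPM of 6 marker lists (below it) over the mean of the 4 libraries (colour and number), with the cKO libraries on the left. Crabp1 and surface and placodal ectoderm are lowest in control replicate 1 (-1.33 and -1.31), and Rarb and head mesenchyme are lowest in cKO replicate 2 (-0.62 and -0.53).

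Several of the marker sums reported here did not overlap between the groups in CPM. Neuronal, erythroid and endothelial markers were lower in the cKO, and eye markers were higher by a narrow margin over control replicate 2. Among all single genes tested, the groups did not overlap for 48.3%, and edgeR called 1.57% higher and 2.13% lower. Neuronal markers summed to 508 to 519 CPM in the cKO, against 708 to 920 CPM in the control, with 3 of 6 called lower. Erythroid markers summed to 1748 to 1834 CPM in the cKO, against 2754 to 2975 CPM in the control, with 5 of 5 tested called lower and Hba-a1 at 0 in all libraries. Endothelial markers summed to 199.9 to 201 CPM in the cKO, against 237 to 248 CPM in the control, with 0 of 6 called by edgeR (4 at an unadjusted p under 0.05). Eye markers summed to 24.0 to 27.6 CPM in the cKO, against 15.0 to 22.6 CPM in the control, with 0 of 5 tested called by edgeR (1 at an unadjusted p under 0.05). For 2 of these 5 both cKO libraries were above both control libraries, and for 0 both were below. Among the eye markers Tbx5 was at 0 in both cKO libraries and at 1 and 0 counts in the control libraries. Six6, another eye marker, had 48 and 31 counts in the cKO libraries, against 0 and 33 counts in the control libraries. The forebrain marker Lhx2 measured 157 and 125 CPM in the cKO libraries, against 298 and 216 CPM in the control libraries, and was called lower (log2 fold change -0.87, edgeR adjusted p = 0.029). The part of these cell types in the change of Crabp2, Stra6 and Rdh10 was not tested.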

How the data were processed

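Per the file headers, the authors counted paired reads over exons of a RefSeq mm10 annotation with featureCounts 2.0.1 and set no strand option; the deposited counts are raw, per gene. HISAT2 and DESeq2 also appear in the submitters' processing notes. A second table by the authors gives normalized counts (a signal, each raw count over a constant per library), log2 fold changes and p-values, quoted only where that table is named, and a Wald score that was not used here. Per-sample columns left without a sample numbered 0.

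Genes passing filterByExpr at a minimum count of 10 were scaled by TMM and tested in edgeR 4.0.16 under R 4.3.3 (glmQLFit, glmQLFTest, no covariate), with Benjamini-Hochberg adjustment over all of them. The SE is the log2 fold change over the root of F. The common biological coefficient of variation was 0.0785. The replicates were distinct libraries: a chi-square test of their counts gave 4.07 for each degree of freedom in the cKO pair and 4.78 in the control pair. On simulated counts for 14050 genes with 200 changed, 74.6% of 1.5-fold, 97% of 2-fold and 100% of 4-fold changes were recovered, with 14 false calls among 195. The changed genes averaged 5 CPM or more, and each gene was given the spread typical of its level. These rates therefore do not cover Dhrs3 and Cyp26b1, which averaged less, or genes with a wider spread between replicates. Exon lengths and overlaps come from GENCODE M21, coordinates from RefSeq GRCm38.p6. Limma 3.58.1 and DESeq2 1.42.0 served as alternatives. The members and lists were chosen with earlier results of these data known. The genes named by rule are the members, the called genes of the other retinoid, RA-responsive and coregulator lists, and the gene most like each called member in pattern. Where none was called, the pair with the smallest p-values is named. Outside this rule, Chd7, Rxrg, Rxrb, Aldh1a1, Nr2f2, Nrip1, Cyp26a1 and single cell type markers are also named. Some genes of the marker and RA-responsive lists, and sums that hold them, are not reported here. Sums, shares and ratios are descriptions with no test.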

Additional observations from a re-analysis of the deposited data

How the results depend on the processing

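The call of Crabp2 and the count of 1 member higher and 0 lower held with scaling by DESeq2 or by upper quartiles, with all genes or only those averaging 5 CPM or more, with limma-voom, with the DESeq2 Wald test and with the replicate block. Leaving out each library in turn gave 1 to 2 members higher and 0 lower. In the same fits other retinoid genes called higher were 0 to 3, RA-responsive genes 0 to 2 higher and 2 to 4 lower, coregulators 0 to 1 higher and 0 lower, and all genes 80 to 351 higher and 131 to 418 lower. Such fits assume that the lone library of a group varies like the others. The log2 fold change ran from -1.10 to 0.35 for Cyp26b1 (positive without cKO replicate 2, and at 0.12 without control replicate 2), from -0.75 to 0.079 for Rarb (positive without cKO replicate 2) and from -0.27 to 0.51 for Rarg (negative without cKO replicate 1, and at -0.089 without control replicate 1). None of these was called, and the cause was not tested.

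Same-numbered replicates were not shown to be paired: the deviations of cKO replicate 1 and control replicate 1 from their group means correlated at -0.053 across genes. With the replicate number as a block, 137 genes were higher and 211 lower, and 0 other retinoid and 0 RA-responsive genes were higher, since Rdh10 (adjusted p = 0.058) and Stra6 (0.092) were no longer called. This fit has fewer residual degrees of freedom.

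Another length moved 29 of 40 group levels per kilobase by more than 1 SD and left the order of the genes as it was. Depth limited Aldh1a2 and Aldh1a3 to 17 counts or fewer in a library.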
